A study of Mus musculus with 17 samples.

Results

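CD8 T cells kill with proteins stored in secretory granules, and 10 genes of this equipment are described here: 5 granzymes (Gzma, Gzmb, Gzmc, Gzmf and Gzmk), the pore former Prf1, the storage proteoglycan Srgn, the granule membrane protein Nkg7, the cysteine protease Ctsw and the death ligand Fasl. They were taken by gene symbol from a table of 27240 genes, of which 20137 passed the filter on low counts and were tested, all 10 included. Bulk RNA sequencing counted their transcripts in CD8 T cells that had been sorted by flow cytometry out of mouse lung tumours. The groups were KO core with 6 libraries, WT core with 5, KO rim with 4 and WT rim with 2. KO mice had no PD-L1, which binds the inhibitory receptor PD-1 on T cells, in their endothelium (PDL1DEC), and WT mice did not carry that deletion. Core stands for macroscopic lung nodules and rim for parenchymal nodules, so both terms name an enrichment and not a dissected zone. The sources used here give no Cre driver, tumour model, mouse age or sort purity.

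When a CD8 T cell meets its target, granules fuse with the membrane at the contact site and release their contents. Perforin makes pores, and granzymes, which are serine proteases, pass into the target and cleave proteins there. Granzyme B cuts after aspartate and starts the caspase cascade, whereas granzymes A and K cut after basic residues. Serglycin, the product of Srgn, holds the positively charged proteases inside the granule. Fas ligand kills by another route, by engaging the receptor Fas on the target.

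Total counts ran from 21767045 to 32566456 per library. Levels are CPM, counts per 1000000 counts of the library total scaled by TMM factors, and spreads are SD over libraries. Cd8a lay between 758 and 1982 CPM and Cd3e between 591 and 1358 CPM over the 17 libraries, and Cd4 between 3.72 and 140.3 CPM. Markers of other cells were present too: the summed level of 8 macrophage and monocyte genes ran from 537 to 6598 CPM, and that of 6 natural killer cell genes from 99.3 to 730.1 CPM. The sum of 5 B and plasma cell genes ran from 193 to 3874 CPM. It was highest in KO core F322, where Jchain alone was at 3717 CPM. Cd274, which encodes PD-L1, lay between 87.7 and 212 CPM in KO core, 114 and 219.4 in WT core, 133 and 171 in KO rim, and 126 and 194 in WT rim; the deletion was made in endothelium, so its level in sorted T cells does not check the genotype. By Xist and Y-linked genes 12 libraries were female, 4 were male (F322 and O, both sites, all KO) and the WT core pool was mixed. In bulk libraries, fewer cells of a type and less RNA per cell cannot be told apart.

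The granzyme genes lie in pairs and clusters. Gzma and Gzmk are neighbours on chromosome 13, with 70.6 kb between them, and Gzmb, Gzmc and Gzmf share a cluster on chromosome 14, with 24.2 kb between Gzmb and Gzmc and 20.0 kb between Gzmc and Gzmf (GRCm38, GENCODE M21). Prf1 and Srgn lie on chromosome 10, Nkg7 on 7, Ctsw on 19 and Fasl on 1. The 250 bases before the RefSeq start of each granzyme gene are shown, because transcription factors of killer cells are known to bind in such regions. Another reason is that Gzma, Gzmb and Gzmk were abundant while Gzmc and Gzmf were low, and that all of them varied between libraries. For Gzmk the stretch lies inside the longer gene of GENCODE M21, chr13:113171608-113225908, which was used for its position and exon length. The sequences are those of RefSeq for GRCm38.p6, read 5′ to 3′ along the gene's own strand; capitals mark every match to 4 motifs searched on both strands, TGTGGT (Runx), TGANTCA (AP-1), GGTGTGA (T-box) and TGACGTCA (CRE).
Gzma, chr13:113100982-113101231, minus strand: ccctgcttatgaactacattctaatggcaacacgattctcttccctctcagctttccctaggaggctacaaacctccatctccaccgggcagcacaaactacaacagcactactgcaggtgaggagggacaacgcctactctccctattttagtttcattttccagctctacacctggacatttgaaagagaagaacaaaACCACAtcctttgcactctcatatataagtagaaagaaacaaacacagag
Gzmb, chr14:56262335-56262584, minus strand: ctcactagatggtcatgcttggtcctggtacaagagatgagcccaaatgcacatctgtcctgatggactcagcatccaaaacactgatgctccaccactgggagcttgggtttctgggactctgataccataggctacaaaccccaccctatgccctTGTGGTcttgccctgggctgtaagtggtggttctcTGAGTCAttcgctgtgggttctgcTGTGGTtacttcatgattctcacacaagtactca
Gzmc, chr14:56234658-56234907, minus strand: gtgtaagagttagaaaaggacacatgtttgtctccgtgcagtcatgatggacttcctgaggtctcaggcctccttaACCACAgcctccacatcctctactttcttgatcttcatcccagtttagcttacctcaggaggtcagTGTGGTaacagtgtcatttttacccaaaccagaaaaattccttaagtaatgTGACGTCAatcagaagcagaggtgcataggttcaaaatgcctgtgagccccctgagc
Gzmf, chr14:56211408-56211657, minus strand: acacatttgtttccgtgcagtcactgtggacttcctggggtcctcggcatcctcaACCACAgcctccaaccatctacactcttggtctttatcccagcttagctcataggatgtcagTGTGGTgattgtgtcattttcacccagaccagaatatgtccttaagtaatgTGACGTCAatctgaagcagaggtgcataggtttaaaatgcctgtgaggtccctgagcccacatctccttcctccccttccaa
Gzmk, chr13:113180966-113181215, minus strand: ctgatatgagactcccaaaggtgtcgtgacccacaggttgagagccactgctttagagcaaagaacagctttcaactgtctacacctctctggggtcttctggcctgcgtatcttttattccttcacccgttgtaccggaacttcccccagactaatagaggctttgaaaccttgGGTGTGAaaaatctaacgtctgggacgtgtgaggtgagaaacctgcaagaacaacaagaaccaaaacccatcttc

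The Gzma stretch held 1 Runx match, written ACCACA because it lies on the other strand. The Gzmb stretch held 2 Runx matches and 1 AP-1 match, and the Gzmk stretch 1 T-box match. Gzmc and Gzmf each held 2 Runx matches and 1 CRE match, in the same order. In a global alignment with gaps, the Gzmc and Gzmf stretches matched at 77.2% of 250 bases and the other 9 pairs of granzyme stretches at 51.2% to 54%. Of the 10 genes, 9 had a stretch in the RefSeq table (Ctsw did not), and 6 of these 9 held a Runx match, against 12.8% of 17799 genes of the table. The T-box letters were in 2 of 9 (Gzmk and Nkg7) against 3.13%, the CRE letters in 2 of 9 (Gzmc and Gzmf) against 2.08%, and the AP-1 letters in 1 of 9 (Gzmb) against 5.79%. Gzmc and Gzmf are close copies, so their matches do not count as separate, and a match is a match of letters, not a measured binding site.

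Per kilobase of exon, which allows levels of different genes to be compared, Nkg7 stood at place 4 among 17731 genes by mean CPM per kilobase over the 17 libraries. Gzma stood at place 35, Gzmb at 73, Ctsw at 102, Srgn at 107, Fasl at 216, Prf1 at 444 and Gzmk at 587. Gzmc at place 8094 and Gzmf at 15175 were far below. Together the 10 genes took 0.522 to 0.694 percent of all counts in KO core, 0.422 to 0.689 in WT core, 0.474 to 0.536 in KO rim and 0.31 to 0.785 in WT rim. The range in WT rim spanned all the others, because its libraries H874 and H877 were the lowest and the highest of the 17.

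**Figure D1:**
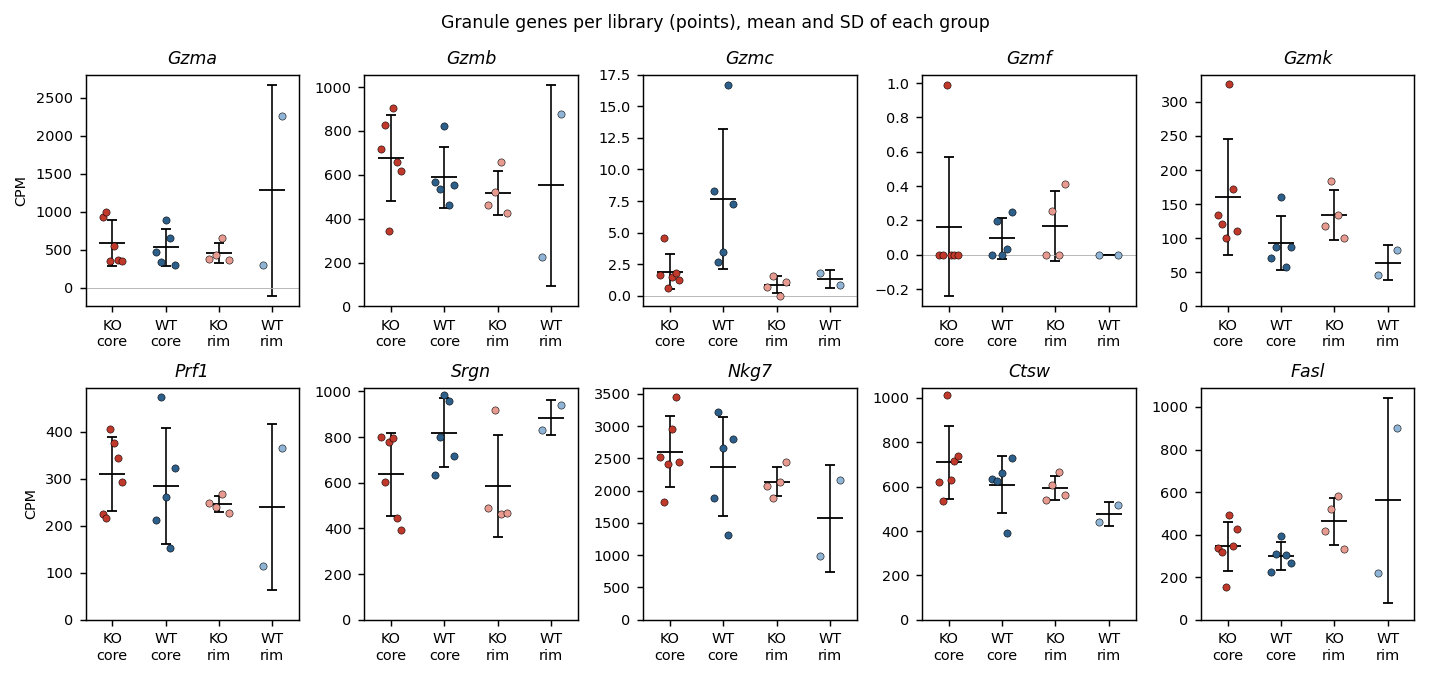
Level of each of the 10 granule genes in CPM (vertical axis, linear, its own scale for each gene) in the 4 groups; points are libraries, horizontal bars the group means and whiskers 1 SD. In WT rim the points of Gzma lie at 297 and 2258 CPM, while the 4 KO rim points lie between 365 and 648 CPM.

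The design asks whether the loss of endothelial PD-L1 changed the CD8 T cells of core or rim tissue. For the granule genes no change was called. None of the 10 passed an adjusted p of 0.05 (edgeR quasi-likelihood test, Benjamini-Hochberg over 20137 genes) in KO against WT in core, and the background was the same, 0 percent of all genes. The same held in KO against WT in rim (0 of 10, background 0 percent), in core against rim in KO (0 of 10, background 0 percent) and for the difference of the KO effect between the sites (0 of 10, background 0 percent). At an unadjusted p under 0.05 there were 2 of 10 in core (6.18 percent of all genes), 2 in rim (7.35 percent), none in core against rim in KO (7.95 percent) and 1 for the difference (7.68 percent). DESeq2, run beside edgeR, called 9, 268, 35 and 161 genes in these 4 comparisons, which is 0.0455, 1.62, 0.187 and 0.913 percent of the genes to which it gave an adjusted p. It called none of the granule genes, of which 10 had an adjusted p in core and 9 in each other comparison. In core against rim in WT, where 3.86 percent of all genes were called, 0 of 10 were called by edgeR, 2 had an unadjusted p under 0.05 (18 percent of all genes), and DESeq2 called 1907 genes (11.8 percent) but again none of these. The 4 comparisons between groups share libraries: each group enters 2 of them.

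Ordered by group mean, the 10 genes give 30 neighbouring pairs of groups, and in 29 of them the libraries of the 2 groups overlapped. In 25 the difference of the means lay within the larger SD. The pair without overlap was KO rim over WT rim for Ctsw. For Prf1, Nkg7 and Ctsw the order was the same, KO core, WT core, KO rim and WT rim from high to low. Fasl ran from WT rim over KO rim and KO core to WT core, Gzmk from KO core over KO rim and WT core to WT rim, and Gzmc from WT core over KO core and WT rim to KO rim. Gzmb ran from KO core over WT core and WT rim to KO rim, and Gzma and Srgn were highest in WT rim and lowest in KO rim.

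Prf1, perforin, the pore former, ran from 216 to 404 CPM with a median of 318.02 in KO core; in WT core it was 473 CPM in H719, 323 in the pool, 262 in H873, 211 in F164 and 153 in H876. In KO rim Prf1 was 267 CPM in F86, 249 in F15, 239 in F322 and 227 in O, and in WT rim 365 CPM in H877 and 115 in H874. The 4 KO rim libraries lay close together, with a coefficient of variation of 6.95 percent, inside the gap between the WT rim libraries. The log2 fold change of KO over WT was 0.12 (SE 0.29, 95% interval -0.49 to 0.73, adjusted p = 1) in core and 0.033 (SE 0.41, 95% interval -0.84 to 0.91, adjusted p = 1) in rim. Core over rim it was 0.33 (SE 0.31) in KO and 0.25 (SE 0.41) in WT, with edgeR adjusted p of 0.875 and 0.816.

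Gzma encodes granzyme A, a trypsin-like protease. Its level ran from 349 to 991 CPM with a median of 451 in KO core, where F219 and F318 stood at 932 and 991 CPM and the other 4 between 349 and 543; in WT core it was 882 CPM in H873, 647 in H876, 472 in F164, 336 in H719 and 301 in the pool. In KO rim Gzma was 648 CPM in F86, 432 in F322, 379 in F15 and 365 in O and in WT rim 2258 CPM in H877 and 297 in H874. H874 was the lowest and H877 the highest of all 17 libraries, 7.62-fold apart. The log2 fold change of KO over WT was 0.16 (SE 0.44, 95% interval -0.78 to 1.09, adjusted p = 1) in core, near 0, and -1.49 (SE 0.61, 95% interval -2.77 to -0.21, adjusted p = 0.63) in rim. The rim value rests on H877: without it Gzma was 0.64 (log2) higher in KO rim than in WT rim, and without H874 it was -2.31. The same library carried the WT site comparison, -1.28 (SE 0.58, 95% interval -2.50 to -0.053, adjusted p = 0.253) for core over rim, which turned to 0.85 without H877, and the difference of the KO effect between sites, 1.64 (SE 0.75, 95% interval 0.046 to 3.24, adjusted p = 0.642), which turned to -0.49.

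Gzmb, granzyme B, the protease that activates caspases, ran from 344 to 905 CPM with a median of 687 in KO core, with F319 lowest and F322 highest; in WT core it was 823 CPM in H873, 568 in F164, 554 in the pool, 535 in H719 and 461 in H876. In KO rim Gzmb was 658 CPM in F86, 521 in F322, 464 in F15 and 426 in O and in WT rim 876.97 CPM in H877 and 227 in H874. All groups overlapped, and the WT rim libraries again lay outside the KO rim range on either side. KO over WT was 0.21 (SE 0.29, 95% interval -0.40 to 0.81, adjusted p = 1) in core and -0.093 (SE 0.41, 95% interval -0.95 to 0.77, adjusted p = 0.986) in rim on the log2 scale. Each WT rim library alone would give another sign in rim, 1.20 without H877 and -0.76 without H874. Core over rim was 0.39 (SE 0.31) in KO and 0.091 (SE 0.40) in WT, with edgeR adjusted p of 0.834 and 0.95.

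Gzmk, granzyme K, the neighbour of Gzma and like it a trypsin-like protease, was, of the abundant granzymes, the one with higher means in KO at both sites. It ran from 101 to 326 CPM with a median of 127 in KO core; in WT core it was 161 CPM in H873, 87.8 in H719, 87.4 in the pool, 71.5 in F164 and 57.4 in H876. In KO rim Gzmk was 184 CPM in F322, 134 in F86, 117 in F15 and 100.3 in O and in WT rim 82.3 CPM in H877 and 46.0 in H874. The core groups overlapped through H873, whereas every KO rim library lay above both WT rim libraries, as was the case for 13.7 percent of all genes in one direction or the other. Means were 161 ± 84.6 CPM in KO core (n = 6) and 93.0 ± 40.1 in WT core (n = 5), and 134 ± 36.2 CPM in KO rim (n = 4) and 64.1 ± 25.7 in WT rim (n = 2). KO over WT was 0.79 (SE 0.32, 95% interval 0.11 to 1.47, adjusted p = 0.796) in core and 1.06 (SE 0.48, 95% interval 0.055 to 2.07, adjusted p = 0.659) in rim on the log2 scale, neither of which passed the edgeR threshold. Without the KO core library F322, at 326 CPM, the core value was 0.44. The sign was positive under every alternative tried at both sites, from 0.44 to 1.07 in core and from 0.70 to 1.56 in rim. Esm1, an endothelial gene on the opposite strand within the Gzmk locus, shares no exon base with it; it stood at 98.9 CPM in WT rim H877.

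Gzmc, a granzyme of the chromosome 14 cluster, was rare. It ran from 0.608 to 4.61 CPM with a median of 1.59 in KO core, and in WT core it was 16.7 CPM in H876, 8.26 in F164, 7.24 in the pool, 3.47 in H873 and 2.71 in H719. In KO rim Gzmc was 1.61 CPM in F322, 1.12 in O, 0.734 in F15 and 0 in F86, the 0 being a count of 0 that allows up to 3 counts, and in WT rim 1.81 CPM in H874 and 0.844 in H877. WT core was the high group, with 1027 counts in its 5 libraries against 314, 81 and 59 in KO core, KO rim and WT rim; only KO core F318 reached into its range. The log2 fold change was -2.01 (SE 0.75, 95% interval -3.60 to -0.41, adjusted p = 0.796) for KO over WT in core, and it stayed between -2.47 and -1.52 with any library left out. Core over rim in WT was 2.53 (SE 1.19, 95% interval -0.0033 to 5.05, adjusted p = 0.278), with every WT core library above both WT rim libraries, which 19.8 percent of all genes showed in one direction or the other. Core over rim in KO was 1.13 (SE 0.83, 95% interval -0.63 to 2.89, adjusted p = 0.807), and KO over WT in rim -0.62 (SE 1.06, edgeR adjusted p = 0.932).

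Gzmf, of the same cluster, had 54 counts in the 17 libraries, 26 of them in KO core F319 (0.988 CPM) and none in the other 5 KO core libraries. In WT core there were 12 counts in 3 of 5 libraries, in KO rim 16 counts in 2 of 4 and in WT rim none, which allows up to 0.0682 CPM over the group. Against that floor the mean of KO rim was at least 2.45-fold higher and that of WT core at least 1.42-fold higher, and no comparison passed the test. Of the related granzymes Gzmd had 18 counts in all, and Gzme had 53, all in WT rim H874. Gzmc, Gzmd, Gzme and Gzmf are near copies of each other and reads of one may have been assigned to another, so these low counts are uncertain. An annotated antisense gene, Gm4022, overlaps Gzmf and is not used here.

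Counted per kilobase, 3 enzymes made up nearly all granzyme transcripts. Gzma held 48.0 ± 10.6 percent of the granzyme CPM per kilobase in KO core and 50.2 ± 9.35 in WT core, and Gzmb 41.0 ± 7.42 and 41.7 ± 8.04. In KO rim Gzma held 48.8 ± 3.08 percent and Gzmb 39.3 ± 1.28, in WT rim 68.1 ± 12.3 and 26.4 ± 7.74. Gzmk held 10.2 ± 4.26 percent in KO core and 6.66 ± 1.84 in WT core, and 10.6 ± 2.63 in KO rim and 4.34 ± 3.28 in WT rim. Its share was above the highest WT rim share, 6.66 percent, in all 4 KO rim libraries, the lowest of which held 7.96 percent; in core it ran from 5.26 to 16.6 percent in KO and from 4.01 to 8.26 in WT. These shares were not tested, since they move with each other.

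**Figure D2:**
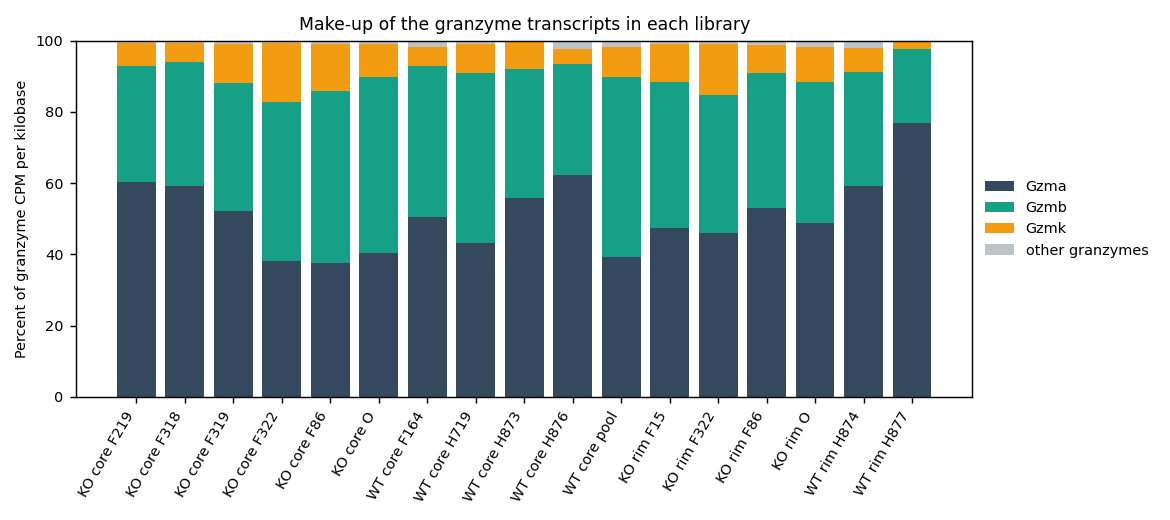
Share of each granzyme in the summed granzyme CPM per kilobase of exon (vertical axis, percent) in each of the 17 libraries, KO core, WT core, KO rim and WT rim from left to right; other granzymes are Gzmc, Gzmd, Gzme, Gzmf and Gzmm. Gzma has its highest share, 76.8 percent, in WT rim H877, and Gzmk has its highest share, 16.6 percent, in KO core F322.

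Srgn, serglycin, the matrix to which the proteases bind in the granule, had lower means in KO at both sites. It ran from 394 to 799 CPM with a median of 691 in KO core; in WT core it was 985 CPM in H873, 959 in H876, 802 in H719, 718 in the pool and 636 in F164. In KO rim Srgn was 918 CPM in F322, 491 in F15, 469 in O and 462 in F86 and in WT rim 939 CPM in H877 and 832 in H874. In KO rim 3 libraries lay below 500 CPM and F322 lay between the WT rim libraries, so the groups overlapped. KO over WT was -0.37 (SE 0.22, 95% interval -0.83 to 0.10, adjusted p = 0.915) in core and -0.60 (SE 0.31, 95% interval -1.25 to 0.055, adjusted p = 0.696) in rim on the log2 scale. Both kept a negative sign under every alternative tried, and neither passed the edgeR threshold in any. Many leukocytes express Srgn.

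Nkg7, a granule membrane protein that promotes degranulation, had the highest CPM per kilobase of the 10. It ran from 1829.5 to 3457 CPM with a median of 2485 in KO core; in WT core it was 3219 CPM in H719, 2792 in the pool, 2657 in H873, 1880.1 in F164 and 1311 in H876. In KO rim Nkg7 was 2441 CPM in O, 2138 in F86, 2078 in F15 and 1892 in F322 and in WT rim 2159 CPM in H877 and 984 in H874. WT rim H874 and WT core H876 were the lowest of the 17 and every other library lay at 1829.5 CPM or more. KO over WT was 0.13 (SE 0.23, 95% interval -0.35 to 0.62, adjusted p = 1) in core and 0.44 (SE 0.33, 95% interval -0.26 to 1.15, adjusted p = 0.757) in rim; core over rim was 0.29 (SE 0.25) in KO and 0.59 (SE 0.33) in WT, with edgeR adjusted p of 0.859 and 0.361.

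Ctsw, cathepsin W, a cysteine protease of killer cells, ran from 537 to 1015 CPM with a median of 671 in KO core, with F319 highest; in WT core it was 730.5 CPM in the pool, 661 in H873, 633 in F164, 625 in H719 and 389.8 in H876. In KO rim Ctsw was 664 CPM in F86, 609 in F322, 563 in O and 541 in F15 and in WT rim 515 CPM in H877 and 440.2 in H874. Each KO rim library lay above both WT rim libraries, though by little, 541 against 515 CPM at the nearest, and 13.7 percent of all genes did not overlap here. KO over WT was 0.22 (SE 0.16, 95% interval -0.12 to 0.57, adjusted p = 0.999) in core and 0.32 (SE 0.24, 95% interval -0.18 to 0.81, adjusted p = 0.757) in rim. The neighbouring gene Fibp on the opposite strand shares 9 exon bases with Ctsw and had means of 41.0 to 55.0 CPM in the 4 groups.

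Fasl, the membrane ligand that triggers the death receptor Fas, ran from 152 to 491 CPM with a median of 342 in KO core, with F319 lowest of all 17 libraries; in WT core it was 395 CPM in H873, 309 in H719, 303 in H876, 268 in the pool and 222 in F164. In KO rim Fasl was 581 CPM in F86, 519 in F322, 418 in F15 and 333 in O and in WT rim 901 CPM in H877 and 221 in H874. The WT rim libraries were 4.08-fold apart and lay on either side of all KO rim libraries. KO over WT was 0.20 (SE 0.31, 95% interval -0.45 to 0.86, adjusted p = 1) in core and -0.28 (SE 0.44, 95% interval -1.21 to 0.65, adjusted p = 0.924) in rim; without H877 the rim value was 1.08 and without H874 -0.97. Core over rim was -0.42 (SE 0.33, 95% interval -1.12 to 0.27, adjusted p = 0.828) in KO and -0.91 (SE 0.41, 95% interval -1.78 to -0.033, adjusted p = 0.256) in WT, and the WT value turned to 0.46 without H877.

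**Figure D3:**
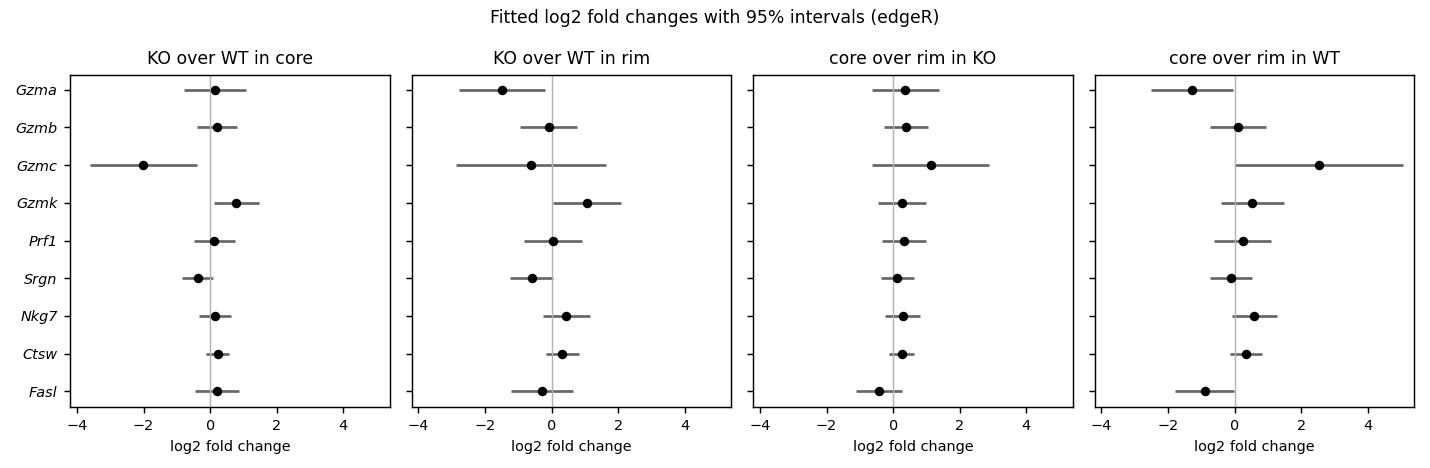
Fitted log2 fold changes (points) with 95% intervals (lines) of 9 granule genes in 4 comparisons, from the edgeR model over 17 libraries; positive values mean higher in the group named first. Gzmf is left out, because its WT rim libraries have no counts. Before adjustment over all genes the intervals of Gzmc and Gzmk in core, of Gzma and Gzmk in rim and of Gzma and Fasl between the WT sites exclude 0, and no gene passed after it.

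Signs over the 10 genes were mixed. In core 8 of 10 log2 fold changes of KO over WT were positive, with a median of 0.18 against -0.01 over all genes tested, and in rim 5 of 10, with a median of -0.03 against 0.011. Core over rim gave 8 of 10 positive in KO (median 0.27, all genes 0.029) and 7 of 10 in WT (median 0.30, all genes 0.033). Both medians that involve WT rim were the same with Gzmf in WT rim set to its floor of 0.0682 CPM. No granule gene separated the core groups by genotype, where 0.397 percent of all genes did, or the sites in KO, where 1.6 percent did.

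Comparisons with WT rim rested on 2 libraries that differed widely in these genes. H877 exceeded H874 in 8 of the 10 genes, against 47.9 percent of all genes tested. H874 was the lowest of the 17 libraries in 5 genes (Gzma, Gzmb, Gzmk, Prf1 and Nkg7), and H877 the highest in 2 (Gzma and Fasl). Marker levels moved with this: the summed natural killer cell markers were 99.3 CPM in H874 and 499 in H877, and Cd4 was 4.77 CPM in H874 and 107 in H877. The summed CD8 T cell markers were 5258 CPM in H874 and 4883 in H877; of their 6 genes Cd8a and Cd8b1 were higher in H877, and Cd3d, Cd3e, Cd3g and Cd2 were lower. Their part in the difference between the libraries was not tested.

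Across the 17 libraries several of the genes varied together, described here with Pearson's r of log2 CPM and no test; the libraries share groups and sources, so these are not independent points. Prf1 and Nkg7 had an r of 0.86, Prf1 and Ctsw 0.68, and Nkg7 and Ctsw 0.67. Gzma and Gzmb had 0.66, Gzmb and Fasl 0.63, and Gzma and Fasl 0.58. Links across these triplets were as large in part: Gzmb and Nkg7 had 0.55 and Gzmb and Prf1 0.45, whereas Gzma and Prf1, whose products act together, had 0.018. Gzmk had 0.63 with Nkg7, 0.62 with Gzmb, 0.48 with Prf1 and 0.11 with Gzma, its neighbour in the genome. With the group means removed, Prf1 and Nkg7 kept 0.86, Gzma and Gzmb had 0.80, and Gzmb and Fasl 0.91. In WT rim, with 2 libraries, the deviations from the group mean mirror each other, so they agree fully in size for any pair of genes. H874 and H877 were far apart there, 7.61-fold for Gzma, 3.86-fold for Gzmb and 4.08-fold for Fasl. How much these r rest on WT rim was not tested. KO core F319 had the lowest Fasl of all 17 libraries (152 CPM) and the second lowest Gzmb (344 CPM) with the highest Ctsw (1015 CPM) and the second highest Prf1 (404 CPM). Gzmb per Prf1, per kilobase, was 1.53 there and between 2.04 and 6.90 in the other 16 libraries. The highest r of Srgn with any of the others was 0.401, with Gzmc.

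**Figure D4:**
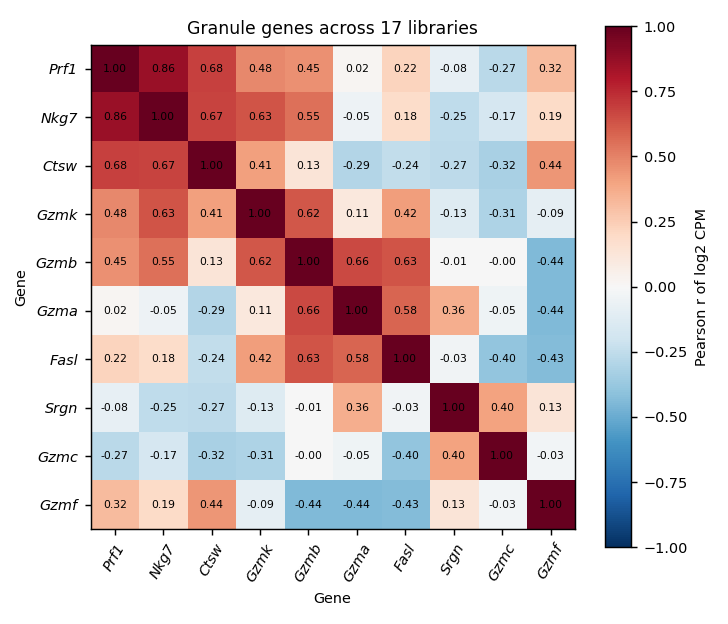
Pearson's r of log2 CPM between the 10 granule genes over 17 libraries, red for positive and blue for negative. Prf1, Nkg7 and Ctsw have r of 0.67 to 0.86 with each other and Gzmb, Gzma and Fasl 0.58 to 0.66, while Gzmk has 0.63 with Nkg7 and 0.62 with Gzmb, so the sets are not separate; Gzmf is at or near 0 counts in most libraries, so its row carries little.

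Among 9772 other genes averaging 5 CPM or more, the ones most like Gzma were Cx3cr1, the receptor of fractalkine (r = 0.90), the transcription factor Zeb2 (0.88) and Nebl (0.86). Cx3cr1 stood at 362 CPM in WT rim H877 and 61.7 in H874, and at 153 CPM in KO core F318 and 51.9 in F319. Zeb2 stood at 307 CPM in H877 and 50.8 in H874. For Nkg7 the most alike were Cxcr6, a chemokine receptor (0.92), Hip1 (0.91) and Kctd17 (0.90). Cxcr6 ran from 245 CPM in WT rim H874 to 2010 CPM in WT core H719, the library with the highest Prf1. For Gzmb they were Slc25a24 (0.84), the integrin chain Itgb2 (0.84) and Tfeb (0.84). The highest r was 0.83 for Prf1 (Smpd1 and Nmb, then Ikzf3 at 0.82), 0.88 for Ctsw (Cnot3, then Tlcd3a and Lpxn), 0.85 for Srgn (Eif2a, then Setd5 and Rai1), 0.82 for Fasl (Ppp1r12a, then Baiap3 and Tfip11), 0.82 for Gzmk (Ildr1, then Cela1 and Hip1r), 0.82 for Gzmc (Atp5mpl, then Tbca and Aplf) and 0.72 for Gzmf (Npm3, then Ephb6 and Mrpl2). These are the top values of a search over 9772 genes in 17 libraries and carry no test.

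Gzma also moved with the summed natural killer cell markers (r = 0.75), as did Gzmb (0.59), whereas r was -0.069 for Prf1, -0.0075 for Nkg7 and -0.025 for Gzmk. Ncr1, which defines natural killer cells, lay between 0.12 and 26.3 CPM; it was 26.3 CPM in KO core F318, 18.5 in WT core F164, 14.5 in WT core H876, 12.1 in KO core F219 and 8.26 in WT rim H877, in which Gzma was 991, 472, 647, 932 and 2258 CPM. WT core H873, with the highest Gzma of its group at 882 CPM, had 3.05 CPM of Ncr1 but 34.2 CPM of Klrb1c, another gene of that list. In the libraries named before it, Klrb1c was 58.3, 4.11, 42.2, 30.3 and 53.1 CPM in the same order. The sum ran from 163 to 730.1 CPM in KO core (median 240), from 172 to 664 in WT core (median 327), from 129 to 294 in KO rim (median 239) and from 99.3 to 499 in WT rim, and none of its 6 genes was called in any comparison. Tyrobp takes much of the sum and macrophages express it too. Nkg7 moved with the summed CD8 T cell markers (0.70) and with the CD4 and regulatory T cell markers (0.80). Ctla4 took much of the latter sum, 595.9 of 662 CPM in KO core F86. Cd4 itself was 22.6 CPM in F86 with Nkg7 at 3457, and 4.77 in WT rim H874 with Nkg7 at 984. Cd4 was 140.3 CPM in KO core F318 with Nkg7 at 1829.5, and 94.7 in WT core H876 with Nkg7 at 1311. Nkg7 also moved against the summed endothelial markers (-0.81), as did Prf1 (-0.73). The endothelial sum ran from 66.6 to 213 CPM in KO core and from 50.3 to 175 in WT core. In KO rim it ran from 76.8 to 110.5 CPM and in WT rim from 122 to 207. Pecam1 took most of this sum, 200 of 207 CPM in WT rim H874, the library with the lowest Nkg7. There Cdh5 was 1.90 CPM and Kdr had a count of 0. In KO core F318, with the highest sum, Pecam1 was 141.7, Kdr 52.2 and Cdh5 17.4 CPM. Gzmc had its highest r with the neutrophil (0.60), B and plasma cell (0.565) and gamma delta T cell (0.55) markers, and WT core, its high group, had the highest median of each of these 3 sums (112, 1511 and 4.50 CPM). The part of other cells in these levels was not tested.

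The granule pathway around the 10 genes was read from 5 lists. Of their 44 genes tested, edgeR called none in KO against WT in core (1 with an unadjusted p under 0.05, all genes 6.18 percent) or in rim (8, all genes 7.35 percent), none in core against rim in KO (3, all genes 7.95 percent) and none for the difference of the KO effect between sites (6, all genes 7.68 percent). DESeq2 called none in core and none between the sites in KO, and Serpina3g alone in rim and for the difference. In core against rim in WT edgeR called 6 of 44, 5 higher and 1 lower in core, where 3.86 percent of all genes were called. DESeq2 called these 6 with Tnf and Lta, 8 of 44, where it called 11.8 percent of all genes with an adjusted p. Of 11 genes that activate, inhibit or store granule proteases, 3 rose (median log2 fold change of the list 0.37, all genes 0.033). Of 19 genes of granule biogenesis and release 1 rose and 1 fell (median 0.155), and of 7 other death ligands and Fas pathway genes 1 rose (median 0.58). None of 6 transcription factors known to drive cytotoxic genes was called (median 0.11), nor was Gzmm, the tested granzyme outside the 10.

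Serpina3g, a serpin that in mice protects T cells from cathepsins leaked out of lysosomes, rose most. It was 588 CPM in H873, 493 in H719, 315 in H876, 299 in the pool and 217 in F164 in WT core and 89.5 CPM in H877 and 47.4 in H874 in WT rim, which gave a log2 fold change of 2.48 (SE 0.44, 95% interval 1.55 to 3.41, adjusted p = 0.0077). Cst7, cystatin F, which inhibits the cathepsins that activate granzymes, was 355 CPM in H719, 226 in the pool, 217 in H873, 159 in F164 and 134 in H876 in WT core and 94.3 CPM in H877 and 84.4 in H874 in WT rim, 1.29 (SE 0.30, 95% interval 0.66 to 1.92, adjusted p = 0.0256). Every WT core library lay above both WT rim libraries for both genes, and 19.8 percent of all genes did not overlap in this comparison. The serpin Serpinb6a averaged 57.5 ± 12.7 CPM in WT core and 29.1 ± 1.46 in WT rim, 0.98 (SE 0.25, 95% interval 0.44 to 1.52, adjusted p = 0.0411).

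Vamp8, a SNARE protein of granule fusion, was 229 CPM in H873, 218 in H876, 194 in H719, 169 in the pool and 151 in F164 in WT core and 111 CPM in H877 and 79.8 in H874 in WT rim, which gave a log2 fold change of 1.01 (SE 0.21, 95% interval 0.57 to 1.45, adjusted p = 0.016). Lyst, the regulator of lysosome and granule size that is mutated in beige mice, was the one that fell: 84.3 CPM in the pool, 83.8 in F164, 76.2 in H719, 60.9 in H876 and 47.0 in H873 in WT core and 153 CPM in H877 and 129 in H874 in WT rim, -0.999 (SE 0.24, 95% interval -1.50 to -0.50, adjusted p = 0.0297). The groups did not overlap for either gene, which adds little at that share of all genes. Tnfsf10, the death ligand TRAIL, averaged 142 ± 35.6 CPM in WT core and 44.7 ± 2.58 in WT rim, 1.67 (SE 0.37, 95% interval 0.90 to 2.45, adjusted p = 0.0205).

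Checked with alternatives chosen after seeing the data, all 6 lost the call without WT rim H874 (edgeR adjusted p from 0.134 to 0.265) and when only the WT libraries were fitted (0.0603 to 0.152). Without H877, Cst7 (0.0781), Serpinb6a (0.169), Lyst (0.162) and Tnfsf10 (0.0731) lost it, without H873 Serpinb6a (0.0743) and Lyst (0.0542), and without H719 or the pool Serpinb6a (0.0712 and 0.064). With a replicate block for the library identifier (limma voom) Cst7 (0.0545) and Serpinb6a (0.0922) were not called, and in female libraries alone Cst7 (0.11), Serpinb6a (0.144) and Lyst (0.0565) were not. In KO the log2 fold changes of core over rim of the same genes ran from 0.14 for Cst7 to 0.61 for Tnfsf10, with -0.45 for Lyst, and the difference of the KO effect between sites passed the test for none, the lowest adjusted p being 0.31 for Serpina3g. In the same WT comparison the macrophage genes C1qb and C1qc were called too, at 134 to 351 and 69.5 to 215 CPM in WT core against 16.3 to 28.9 and 9.99 to 16.2 in WT rim, as was Il2ra of the CD4 and regulatory T cell list. The summed macrophage markers ran from 1595 to 4898 CPM in WT core and from 1009 to 1655 in WT rim, and their part in the result was not tested.

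**Figure D5:**
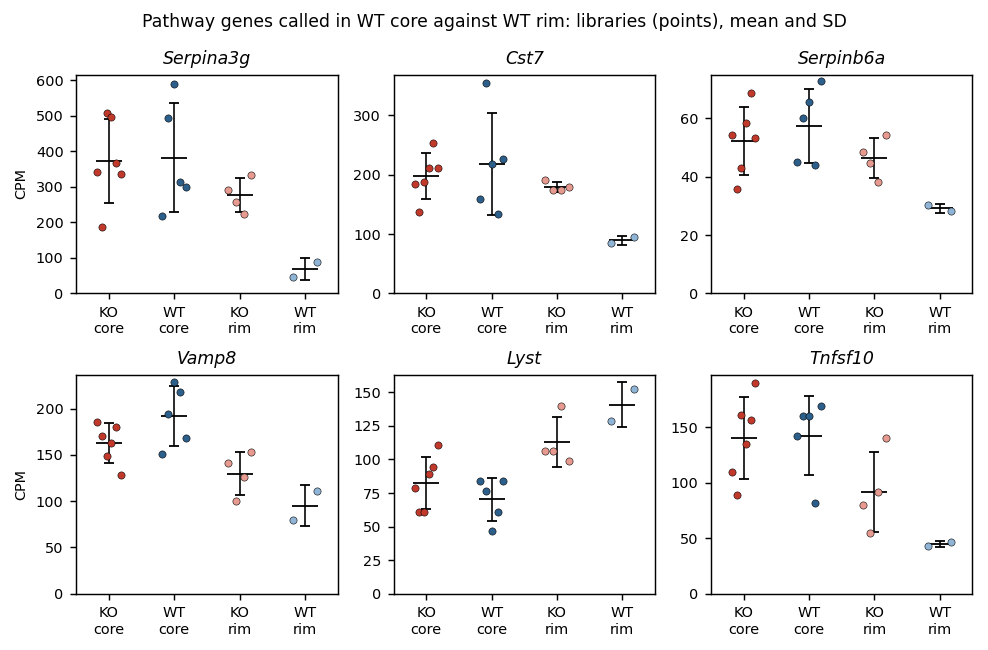
Level in CPM (vertical axis, linear, its own scale for each gene) of the 6 granule pathway genes called in core against rim in WT; points are libraries, horizontal bars the group means and whiskers 1 SD. WT rim is the low group in 5 panels and the high one in Lyst, where its libraries lie at 129 and 153 CPM, above all WT core libraries.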

How the data were processed

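A single table of raw counts, 1 column for each labelled library and no normalization, is what the authors deposited. Per the labels, RNA was taken with the RNeasy Micro Kit and libraries were made with the TruSeq RNA Library Prep Kit. The submitters' processing notes list HISAT2 and Bowtie2 2.4.5, featureCounts and Subread 2.0.0, and cutadapt 3.2, with the builds mm10 and GRCm38; the sources used here give no strandedness or settings, so reads of genes on opposite strands may be mixed.

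The counts were fitted with edgeR 4.0.16 under R 4.3.3 (TMM, filterByExpr, robust quasi-likelihood F test, two-sided) in 1 model of all 17 libraries and 4 groups, so that WT rim shared the spread of the others. Adjustment was by Benjamini-Hochberg over 20137 genes, with calls under 0.05; log2 CPM used a prior count of 2. SE is the size of the log2 fold change over the root of F. The code was tested on simulated data. Limma 3.58.1 and DESeq2 1.42.0 served as alternatives, with other scalings, no filter, female libraries only and each library left out.

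All 10 genes are named; of the pathway and marker lists each called gene is named, up to 6 per list and comparison. Likeness takes the 3 other genes with the highest r, leaving out clone, microRNA, Rik and Gm symbols. Genes and lists were chosen with earlier results of these data known. Gzmg, Gzmn and Vamp7 of the pathway lists and Trdc, Trdv4, Tcrg-C1 and Elane of the marker lists are not analysed here. One further gene of the pathway lists is not reported here. Exon lengths and positions come from GENCODE M21 and sequences from RefSeq for GRCm38.p6. Nothing in the labels says that libraries come from separate mice, so p-values measure the spread between libraries, which may be technical. KO core and KO rim each held male and female libraries, so within these groups not all libraries came from 1 mouse. Floors of 3 counts cover counting error only.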

Additional observations from a re-analysis of the deposited data

Results flagged for a closer look

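The check covered 30 sets of 4 to 6 libraries (1 gene in 1 group). It compared the highest or lowest library with its nearest neighbour, relative to the whole range of the group. Of these, 4 stood apart. Chance flags about 1 in 20 where values are normally distributed, which was not checked for these CPM. Gzmk in KO core F322 was 326 CPM, with the next library at 172. Gzmc in KO core F318 was 4.61 CPM, with the next at 1.80. Gzmf in KO core F319 was 0.988 CPM, with all others at 0, so any count there would have been flagged. Srgn in KO rim F322 was 918 CPM, with the next at 491. F322 accounts for 2 of the 4; it is male, as is O, which had 110.02 CPM of Gzmk in KO core and 469 of Srgn in KO rim, inside the range of the others. WT rim, with 2 libraries, could not be checked in this way.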

How the results depend on the processing

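Under each of 25 settings other than the one reported, 0 of the 10 granule genes were called in any comparison. The lowest adjusted p were 0.0674 for Gzmc, 0.0826 for Gzmb and 0.0893 for Nkg7, all for core over rim in WT. Of 845 log2 fold changes of these genes under the settings 48 had the other sign, spread over 27 of 50 gene and comparison pairs. Among genes with an unadjusted p under 0.05, leaving out WT rim H877 turned Gzma in KO over WT in rim to 0.64 (range over all libraries left out -2.31 to 0.64), Gzma in core over rim in WT to 0.85 (-2.10 to 0.85), Fasl in core over rim in WT to 0.46 (-1.59 to 0.46) and the Gzma difference of the KO effect between sites to -0.49 (-0.49 to 2.46).

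Counts over the whole table moved more. Core over rim in WT gave 777 calls, but 1907 by DESeq2, 313 in female libraries, 91 with the WT groups alone, 500 without H719, 411 without H873 and 68 without H874. KO over WT in rim gave 0 calls, but 268 by DESeq2, 2 with no filter, 26 without KO rim F322, 4 without WT rim H874 and 23 without H877. KO over WT in core gave 9 and core over rim in KO 35 by DESeq2. The difference of the KO effect gave 161 by DESeq2, 4 with no filter, and up to 14 with 1 library left out. Where 1 WT rim library was left, it was assumed to vary like the other groups. The cause of these shifts was not tested.

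F322, F86 and O each name 1 core and 1 rim library of KO mice. The deviations of the same-named libraries from their group means had correlations of 0.072, 0.045 and 0.082, and only F322 matched its own name best. The main fit did not take the names as pairs. Low correlations cannot show that a name marks different mice, and the sex agreed within each name (F322 and O male, F86 female). With a replicate block for the identifier (limma voom), 0 of the 10 genes were called, and all genes gave 2 calls in core over rim in KO, 8 in KO over WT in rim and 556 in core over rim in WT. With the identifier as a fixed replicate block in edgeR on the 3 pairs, 0 genes were called.

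Each of the 8 abundant genes had at least 1041 counts in every library, whereas Gzmf, with 54 counts in all, and Gzmc outside WT core rest on few.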
